A study of Mus musculus with 4 samples.

Results

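Nf1 and 8 other genes that switch off RAS were followed by symbol through RNA sequencing of mouse sciatic nerve, 9 genes of the 24062 in the deposited table. They comprise 6 RAS GTPase-activating proteins (Nf1, Rasa1, Rasa2, Rasa3, Dab2ip and Rasal2) and the 3 SPRED adaptors (Spred1, Spred2 and Spred3). All 9 passed the filter of 1 CPM in at least 1 library, where CPM are counts scaled to library size with TMM factors, and the lowest value of any member was 1.59 CPM, for Spred3 in PKO-NF1. Every animal was of strain C57BL/6 and 4 months old, and there was 1 library per genotype. WT was labelled C57BL/6 with no mutant allele. PKO was P2RY14-/-, without the UDP-sugar receptor gene P2ry14. NF1 was Nf1fl/fl; Dhh Cre, and the sample is labelled a repeat. PKO-NF1 was P2RY14-/- Nf1fl/f Dhh Cre and so carried both mutations. Dhh-Cre acts in the Schwann cell lineage, and whole nerve also holds cells outside it, such as endothelial cells and macrophages. How many cells had recombined was not measured. The labels do not give the number of animals in a library, and no spread between animals can be given.

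RAS proteins signal while bound to GTP and stop when they hydrolyse it. A GTPase-activating protein inserts an arginine into the RAS active site and speeds that hydrolysis. Neurofibromin, the product of Nf1, is the brake whose loss in the Schwann cell lineage gives rise to neurofibromas. SPRED proteins have no GTPase-activating domain; they bind neurofibromin and bring it to the plasma membrane, where RAS is.

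A conserved signature of the GTPase-activating domain was located in the coding sequence of each GTPase-activating member, to show what the 6 proteins share and the SPREDs lack. A reading frame was searched for phenylalanine, leucine and arginine followed, after 4 residues of any kind, by alanine. Its arginine is another residue than the one inserted into RAS. It was found 1 time in each of the 6 and 0 times in Spred1, Spred2 and Spred3, and 203 of 21901 protein-coding genes (0.927%) hold it in their longest frame. The sequences below are from GENCODE transcripts on GRCm38, 5′ to 3′ on the coding strand, with the 24 bases of the signature in capitals and 30 coding bases on each side.
Nf1: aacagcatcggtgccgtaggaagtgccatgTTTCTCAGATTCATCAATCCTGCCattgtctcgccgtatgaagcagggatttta
Rasa1: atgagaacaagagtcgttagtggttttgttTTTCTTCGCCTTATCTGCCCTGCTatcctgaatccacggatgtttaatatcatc
Rasa2: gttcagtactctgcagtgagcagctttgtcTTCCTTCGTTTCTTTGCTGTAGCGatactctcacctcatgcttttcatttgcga
Rasa3: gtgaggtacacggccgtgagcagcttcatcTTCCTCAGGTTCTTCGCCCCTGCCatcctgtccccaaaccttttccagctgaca
Dab2ip: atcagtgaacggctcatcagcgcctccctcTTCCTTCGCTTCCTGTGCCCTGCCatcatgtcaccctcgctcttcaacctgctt
Rasal2: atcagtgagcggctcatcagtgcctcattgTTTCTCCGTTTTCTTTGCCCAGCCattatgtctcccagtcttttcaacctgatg
Of the 24 signature bases, Rasa3 shares 18 with Nf1, Rasa1, Dab2ip and Rasal2 share 15 each, and Rasa2 shares 12. In Nf1 (ENSMUSG00000020716; chromosome 11, 79339693 to 79581612, plus strand) the signature is in exon 32 of ENSMUST00000071325, from 79468771 to 79468794. It lies in exon 21 of Rasa1 (chromosome 13, 85221505 to 85221528, minus strand), exon 15 of Rasa2 (chromosome 9, 96566058 to 96566081, minus strand) and exon 15 of Rasa3 (chromosome 8, 13583792 to 13583815, minus strand). In Dab2ip it is in exon 9 (chromosome 2, 35715372 to 35715395, plus strand) and in Rasal2 in exon 11 (chromosome 1, 157163813 to 157163836, minus strand). The table holds gene totals, so reads over these exons, or over the floxed part of Nf1, could not be counted apart from the rest of the gene.

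The libraries held between 14111201 and 20362685 counts, and a gene with 0 counts could have reached 3, or 0.152 to 0.183 CPM. P2ry14 stood at 10.6 CPM in PKO-NF1 and 10.9 CPM in PKO, below 37.6 CPM in WT and 65.3 CPM in NF1. All 10 Schwann cell markers were detected in each library and summed to 8125 CPM in NF1 and 18596 to 33292 CPM in the others. The 12 skeletal muscle markers summed to 48566 CPM in NF1 and to 113 to 828 CPM in the others, with 1 of the 12 at 0 in PKO. Counts of Xist were 9 for PKO-NF1, 4948 for PKO, 10304 for WT and 39699 for NF1. Those of the Y-linked Ddx3y were 842, 396, 813 and 0 in that order. WT and PKO held both transcripts, each lower in PKO: 278 vs 608 CPM for Xist and 22.3 vs 48 CPM for Ddx3y. Comparisons with NF1 or PKO-NF1 set libraries of unlike sex-linked transcripts side by side. Adipocyte markers (8 of 8 detected) summed to 18425 CPM in PKO and 13725 in PKO-NF1, above 6565 in WT and 3906 in NF1, and mast cell markers (8 of 8) to 1095 and 1006, above 410 and 412 CPM. The part of muscle, adipocyte or mast cell RNA, of sex or of the repeat in the differences was not tested. In whole nerve, fewer cells of a type and less RNA per cell cannot be told apart. Intervals are exact 95% intervals unless called approximate, and they cover counting error alone, since reads amplified by PCR and carrying no molecular identifiers are not independent.

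The Nf1 level was 72.8 CPM for WT (1233 counts), 63.4 CPM for NF1 (1250 counts), 41.0 CPM for PKO (729 counts) and 20.5 CPM for PKO-NF1 (336 counts). The library with both mutations was the lowest, and NF1, whose Schwann cell lineage carries the deletion, was above PKO, whose Nf1 is intact. Nf1 was lower by 1.15-fold in NF1 vs WT (interval 1.06 to 1.24) and by 2.0-fold in PKO-NF1 vs PKO (1.75 to 2.28). The second log2 ratio was more negative than the first by 0.80, an estimate of -0.80 with an approximate counting interval of -1.02 to -0.58. Over all 14652 genes the same quantity had a median of -0.02 and quartiles of -0.49 and 0.37. With muscle and adipocyte markers taken out of the scaling, the log2 ratio in NF1 vs WT was -0.20, as it was with them. That step leaves the Nf1 counts as they are, so it cannot show what muscle or adipocyte RNA adds to them.

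Log2 ratios of all genes moved with transcript GC content and length, and Nf1 has a long transcript (11917 bases, 44.9% GC). In PKO-NF1 vs PKO the median log2 ratio was 0.55 in the lowest decile of GC and -0.58 in the highest, and it was -0.44 in the longest decile of transcripts, which begins at 6739 bases. Smooth trends over both properties were therefore also subtracted. The Nf1 log2 ratio then went from -0.20 to -0.10 (-0.22 to 0.01) in NF1 vs WT and was -0.65 (-0.84 to -0.46) in PKO-NF1 vs PKO. The part of GC content and length in the differences was otherwise not tested.

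**Figure D1:**
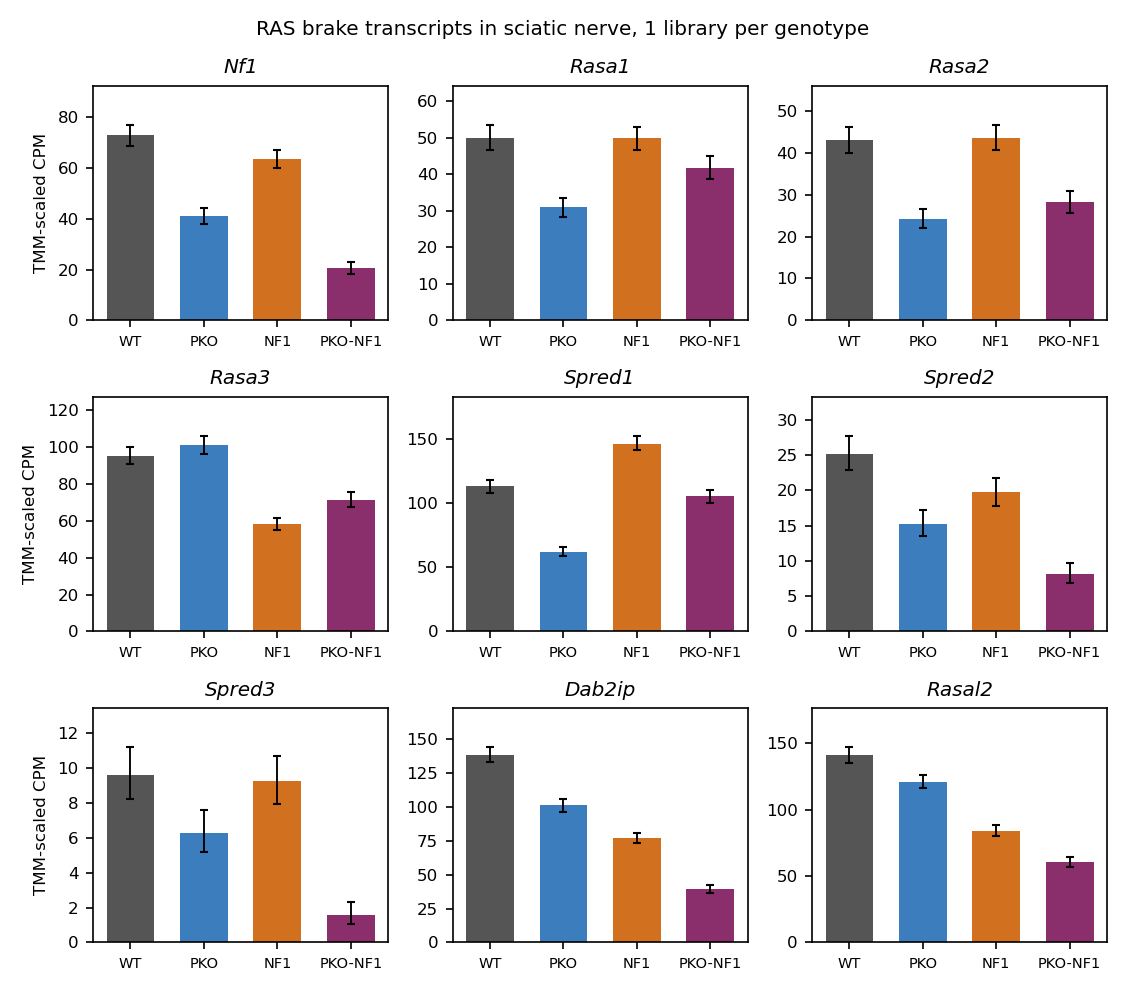
TMM-scaled CPM (vertical axis, from 0) of the 9 RAS brake genes in the WT, PKO, NF1 and PKO-NF1 libraries, with exact 95% Poisson intervals for counting error and no replicates. PKO-NF1 is the lowest bar for Nf1, Spred2, Spred3, Dab2ip and Rasal2, and NF1 is the highest for Spred1 at 146 CPM.

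Per kilobase of exon (the union over all transcripts), a scale on which genes can be compared, Nf1 was seventh of the 9 brakes in WT, at 4.59 CPM per kb (4.34 to 4.85). Rasa3 stood highest in WT at 18.7 CPM per kb (17.8 to 19.7). Spred1 at 16.6 (15.9 to 17.4) and Dab2ip at 16.5 CPM per kb (15.9 to 17.2) followed and did not differ beyond counting error. Below them were Rasal2 at 10.2, Rasa1 at 6.82 and Spred2 at 5.45 CPM per kb, and after Nf1 came Rasa2 at 2.71 and Spred3 at 1.55 CPM per kb. Per kilobase of the longest transcript, a scale added after the data were seen, Nf1 was again seventh in WT at 6.11 CPM per kb, but Rasa2 stood above it at 6.53 and Spred2 below it at 5.66 CPM per kb. In PKO-NF1 the order began with Spred1 at 15.5 CPM per kb and Rasa3 at 14 CPM per kb, and Nf1 was the eighth at 1.29 CPM per kb, above Spred3 at 0.255 CPM per kb. The 9 genes together took 0.0826% of WT counts, 0.0570% of NF1 counts, 0.0439% of PKO counts and 0.0347% of PKO-NF1 counts. These shares are of total counts without TMM scaling. With it, the 9 summed to 688 CPM in WT, 552 in NF1, 503 in PKO and 377 CPM in PKO-NF1. As measured, PKO-NF1 was the lowest library for 5 of the 9 (Nf1, Spred2, Spred3, Dab2ip and Rasal2), beside 30.3% of all genes. PKO was the lowest for Rasa1, Rasa2 and Spred1. With the trends removed Rasal2 was higher in PKO-NF1 than in NF1, at a log2 ratio of 0.25.

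Of the GTPase-activating proteins, Dab2ip and Rasal2 had the same order of libraries as measured, highest in WT and then PKO, NF1 and PKO-NF1. Dab2ip, which acts on RAS and also in TNF signalling, was at 138 CPM in WT, 101 CPM in PKO, 76.8 CPM in NF1 and 39.4 CPM in PKO-NF1. Its level was lower by 1.80-fold in NF1 vs WT (1.69 to 1.92) and by 2.56-fold in PKO-NF1 vs PKO (2.34 to 2.80). Dab2ip is the member with the highest GC content (58.9%), and with the trends removed its log2 ratios were -0.09 and -0.36, down in size from -0.85 and -1.35. Rasal2, a relative of Dab2ip, was at 141 CPM in WT, 121 CPM in PKO, 84.1 CPM in NF1 and 60.7 CPM in PKO-NF1. Rasal2 was lower by 1.67-fold in NF1 vs WT (1.57 to 1.78) and by 2.0-fold in PKO-NF1 vs PKO (1.85 to 2.15). Both ratios stayed below 0 with the trends removed, at -0.53 and -0.58. Rasal2 was then at 0.14 in PKO vs WT and 0.25 in PKO-NF1 vs NF1, so its order of libraries did not hold.

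Rasa1, Rasa2 and Rasa3 had other orders. Rasa1 encodes p120 RasGAP, which binds activated receptor tyrosine kinases through SH2 domains, and its levels were 49.9 CPM for WT, 49.8 CPM for NF1, 30.9 CPM for PKO and 41.8 CPM for PKO-NF1. WT and NF1 did not differ beyond counting error (ratio 0.997, 0.909 to 1.09), and PKO was the lowest. Rasa2 levels were 43.0 CPM for WT, 43.6 CPM for NF1, 24.2 CPM for PKO and 28.2 CPM for PKO-NF1. For Rasa2 too WT and NF1 lay together (ratio 1.01, 0.918 to 1.12), above both P2ry14-null libraries. In PKO-NF1 vs PKO, Rasa1 was 1.35-fold (1.21 to 1.52) and Rasa2 1.16-fold higher (1.02 to 1.33), or 0.09 and -0.00 on the log2 scale with the trends removed.

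Rasa3, a membrane-bound GTPase-activating protein for RAS and RAP1, was at 95.4 CPM in WT, 101 CPM in PKO, 58.4 CPM in NF1 and 71.4 CPM in PKO-NF1. Its 2 Nf1-mutant libraries were below its 2 libraries with intact Nf1, by 1.64-fold in NF1 vs WT (1.52 to 1.76) and 1.42-fold in PKO-NF1 vs PKO (1.32 to 1.53). These log2 ratios were -0.32 and -0.17 with the trends removed, against -0.71 and -0.50 as measured.

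The SPREDs parted from one another. Spred1, the family member mutated in Legius syndrome, was at 113 CPM in WT, 62.1 CPM in PKO, 146 CPM in NF1 and 105 CPM in PKO-NF1. It was higher in both Nf1-mutant libraries, 1.30-fold in NF1 vs WT (1.22 to 1.37) and 1.69-fold in PKO-NF1 vs PKO (1.57 to 1.82). The log2 ratios were 0.26 and 0.57 with the trends removed, against 0.37 and 0.76 as measured. Spred1 was the member with the highest log2 ratio in both comparisons as measured, and neither reached 2-fold.

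Spred2, its close relative, had levels of 25.2 CPM for WT, 19.7 CPM for NF1, 15.3 CPM for PKO and 8.18 CPM for PKO-NF1. It was lower by 1.28-fold in NF1 vs WT (1.11 to 1.47) and by 1.87-fold in PKO-NF1 vs PKO (1.52 to 2.32); the first was -0.03 (-0.24 to 0.17) on the log2 scale with the trends removed. Spred3, the least abundant brake, had 9.62 CPM for WT (163 counts), 9.24 CPM for NF1 (182 counts), 6.30 CPM for PKO (112 counts) and 1.59 CPM for PKO-NF1 (26 counts). WT and NF1 did not differ beyond counting error (ratio 0.960, 0.773 to 1.19), while PKO-NF1 was 3.97-fold lower than PKO (2.57 to 6.34). The Spred3 log2 ratios with the trends removed were 0.42 (0.11 to 0.74) and -1.54 (-2.21 to -0.91). Its exons share 202 bases with the antisense gene Ggn, which had 8 to 28 counts in the 4 libraries; whether the counting used strand was not stated in the sources used here. Spred1 made up 91.5% of the SPRED counts in PKO-NF1 and 83.5% in NF1, beside 76.4% for WT and 74.2% for PKO.

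The balance between Spred1 and Nf1 differed among the libraries. Spred1 was 1.55 times Nf1 in CPM in WT and 1.51 times in PKO, and 2.31 times in NF1 and 5.12 times in PKO-NF1. Per kilobase of exon the ratios were 12.0 in PKO-NF1 and 5.39 in NF1, beside 3.63 for WT and 3.54 for PKO. As measured, WT and PKO lay close together, and both Nf1-mutant libraries lay above them. With the trends removed, log2 ratios in PKO vs WT were -0.71 for Spred1 and -0.37 for Nf1, so WT and PKO then lay apart. In NF1 vs WT they were 0.26 for Spred1 and -0.10 for Nf1, and in PKO-NF1 vs PKO 0.57 and -0.65.

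**Figure D2:**
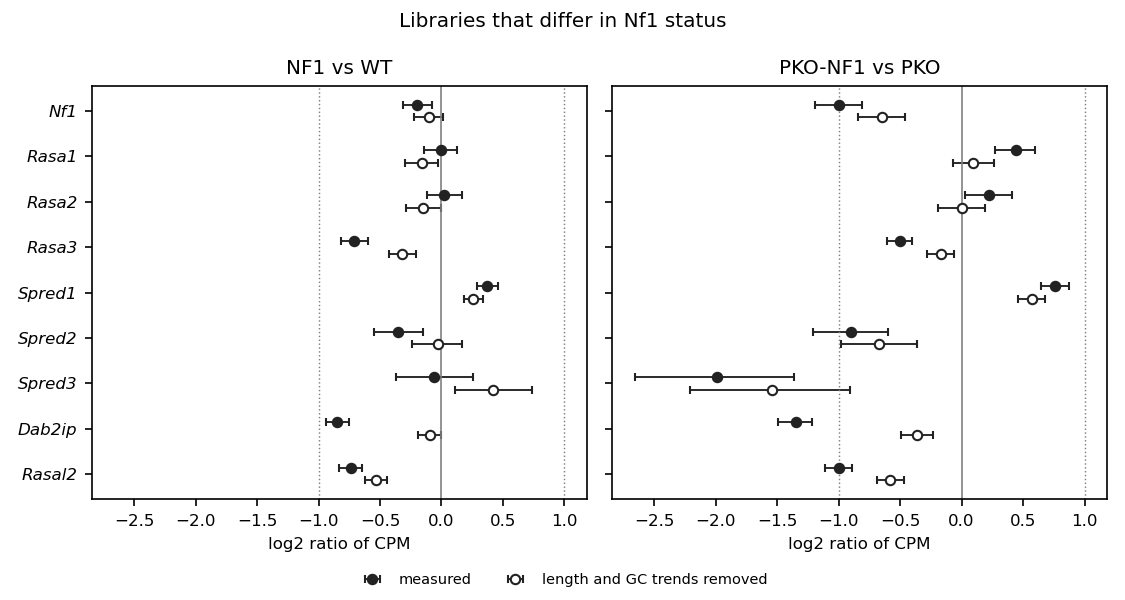
Log2 ratio of CPM (horizontal axis) of each RAS brake gene in NF1 vs WT and PKO-NF1 vs PKO, with exact 95% counting intervals; filled points are as measured, open points have the length and GC trends removed, and dotted lines mark 2-fold. Spred1 lies above 0 in both panels, and Spred3 lies at -1.99 in PKO-NF1 vs PKO.

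Counted as at least 2-fold apart with an interval excluding 1, 0 of the 9 brakes were lower and 0 higher in NF1 vs WT, where 6.31% of 14698 genes were lower and 10.4% higher. The median log2 ratio of the 9 was -0.20, beside -0.00 for all genes. After the trends were removed the members stayed at 0 lower and 0 higher, beside 4.64% and 7.58%. In PKO-NF1 vs PKO, Spred3 and Dab2ip were lower, 2 of 9, beside 9.73% of 14654 genes, and 0 were higher, beside 5.21%. Nf1 and Rasal2, the latter at a ratio of 0.501, sat just inside the 2-fold line. None of the 9 was 2-fold lower in both Nf1 comparisons, beside 2.6% of all genes. The median of the 9 was -0.90, beside -0.01 for all genes, whose lower quartile was -0.50. Spred3 alone was lower by 2-fold once the trends were removed, beside 4.99% of genes, 0 members were higher, beside 2.91%, and the median was -0.36, beside -0.06.

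**Figure D3:**
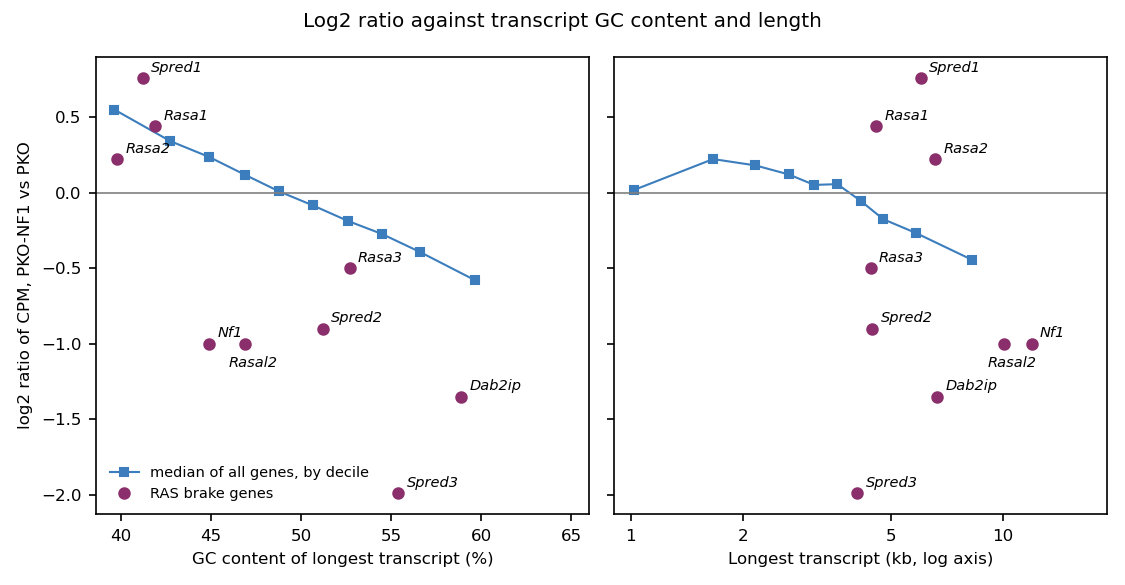
Log2 ratio of CPM in PKO-NF1 vs PKO (vertical axis) against GC content (left, %) and length (right, kb, log axis) of the longest transcript; circles are the 9 RAS brake genes and squares the median of all genes in each decile. Spred1, Rasa1 and Rasa2, at 39.8% to 41.9% GC, lie above 0, and the other 6, at 44.9% GC or more, lie below 0.

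The comparison of PKO with WT is of libraries whose labelled genotypes differ in P2ry14 alone, though their cell type markers also differ. Xist and Ddx3y were detected in both libraries, each at a lower level in PKO. P2ry14 kept 193 counts in PKO. Of the 9 members, 8 were lower in PKO with intervals below 1, beside 37.8% of all genes (6 of 9 beside 40.3% with the trends removed, and 2 above), and Rasa3 was at a ratio of 1.06 (0.991 to 1.13). None was lower or higher by 2-fold, beside 5.23% and 10% of 14677 genes, nor with the trends removed, beside 5.64% and 5.16%. The largest differences were in Spred1 (1.82-fold lower, 1.69 to 1.96), Nf1 (1.78-fold, 1.62 to 1.95) and Rasa2 (1.77-fold, 1.57 to 2.0). The smallest of the 8 was in Rasal2, at 1.16-fold (1.10 to 1.23). The median log2 ratio was -0.69, beside -0.08 for all genes, and -0.40 beside -0.13 with the trends removed. After that step Nf1 was at -0.37 (-0.50 to -0.23), Spred1 at -0.71 (-0.81 to -0.60) and Dab2ip at 0.01 (-0.08 to 0.10). Rasal2 changed sign, from -0.22 to 0.14.

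PKO-NF1 and NF1 have labelled genotypes that differ in P2ry14, both with Dhh Cre and floxed Nf1. Their libraries also differed in Xist (0.549 and 2015 CPM), Ddx3y (51.4 and 0 CPM) and summed skeletal muscle markers (265 and 48566 CPM). The part of these in the ratios was not tested. In PKO-NF1 vs NF1, Nf1, Spred2 and Spred3 were at least 2-fold lower, 3 of 9 beside 13.8% of 14700 genes. At the same threshold 0 were higher, beside 7.9%. Nf1 was 3.09-fold lower (2.74 to 3.50), Spred2 2.41-fold (1.98 to 2.96) and Spred3 5.82-fold (3.85 to 9.15). Dab2ip was 1.95-fold (1.78 to 2.14), Rasa2 1.55-fold (1.38 to 1.74) and Spred1 1.40-fold lower (1.31 to 1.48). Rasa3 was 1.22-fold higher (1.13 to 1.33) and so stood apart from the other 8. Nf1 was at -0.76 with the trends removed (-0.94 to -0.59) and no longer passed 2-fold, Spred2 and Spred3 stayed past it at -1.09 and -2.21, beside 10% of genes lower and 5.85% higher (0 members), and Rasal2 changed sign from -0.47 to 0.25. Dab2ip was then at -0.10 (-0.24 to 0.03).

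**Figure D4:**
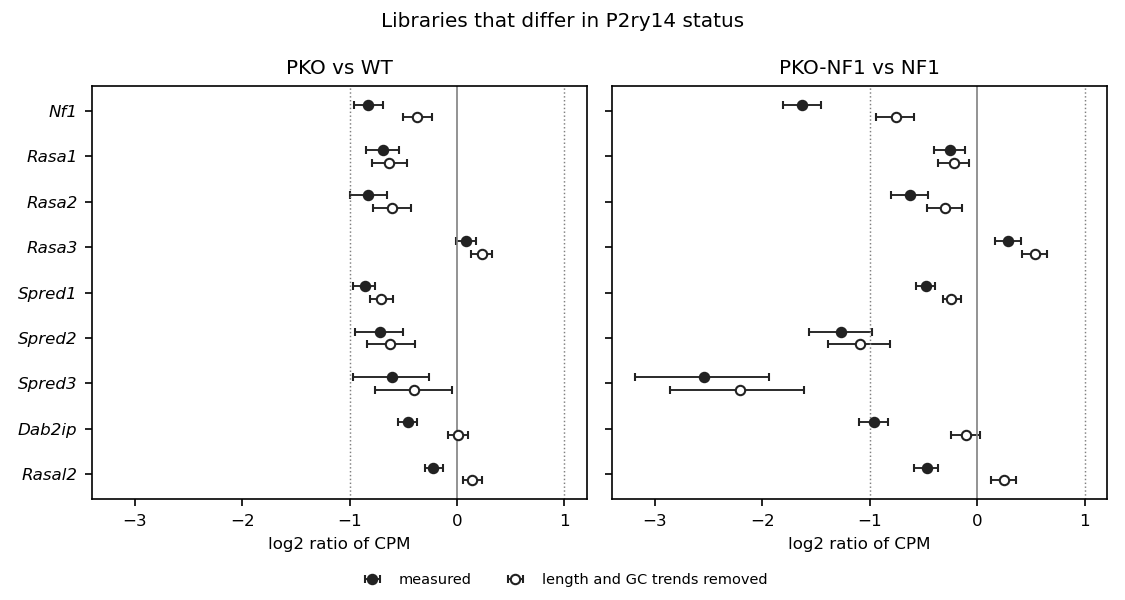
Log2 ratio of CPM (horizontal axis) of each RAS brake gene in PKO vs WT and PKO-NF1 vs NF1, with exact 95% counting intervals; filled points are as measured, open points have the length and GC trends removed, and dotted lines mark 2-fold. All members but Rasa3 lie below 0 as measured in both panels, and Spred3 is the lowest in PKO-NF1 vs NF1 at -2.54.

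An additive model over the 4 libraries, with a term for Nf1 status and one for P2ry14 status, gave the test the design allows. Its 1 residual degree of freedom is the departure from additivity, so p-values do not measure a spread between animals. By edgeR's quasi-likelihood test 0 of 14105 genes passed a Benjamini-Hochberg adjusted p of 0.05 at the Nf1 term, and 0 of the 9 brakes. At an unadjusted p under 0.05 the brakes were 3 of 9 (Rasa3, Dab2ip and Rasal2, all lower), beside 20.9% of all genes, and 2 of 9 beside 14% by DESeq2's Wald test, which called 0 of 9 after adjustment. They were 0 of 9, beside 10% of genes, in edgeR with the trends removed, and 0 of 9 beside 8.08% with this term alone. Nf1 had a fitted log2 change of -0.59 (SE 0.27, edgeR adjusted p 0.285) and Dab2ip one of -1.10 (SE 0.26, edgeR adjusted p 0.170). Spred1 had one of 0.57 (SE 0.25, edgeR adjusted p 0.277).

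At the P2ry14 term 7 of 14105 genes (0.0496%) and 0 of the 9 brakes passed the adjusted threshold by edgeR. At an unadjusted p under 0.05 the brakes were 6 of 9, all lower (Nf1, Rasa2, Spred1, Spred2, Spred3 and Dab2ip), beside 25.2% of all genes, and 3 of 9 beside 18.5% by DESeq2. They were 2 of 9 in edgeR with the trends removed, beside 16.5% of genes, and 2 of 9 beside 12.8% with this term alone. Nf1 had a fitted log2 change of -1.23 (SE 0.28, edgeR adjusted p 0.142), and DESeq2's Wald test gave -1.23 with an adjusted p of 0.0444. The edgeR value with the trends removed was -0.43 (adjusted p 0.417).

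Of the genes nested in introns of Nf1 on the opposite strand, Evi2a was the 1 that passed the filter. Evi2a, a transmembrane protein gene, had 8.79 CPM for WT, 21.3 CPM for PKO, 19.9 CPM for NF1 and 26.3 CPM for PKO-NF1, lowest where Nf1 was highest. It was higher by 2.26-fold in NF1 vs WT (1.87 to 2.75) and by 2.42-fold in PKO vs WT (1.99 to 2.94). Neither was 2-fold with the trends removed, at 0.67 and 0.85 on the log2 scale. Omg, which encodes oligodendrocyte myelin glycoprotein, had 1 to 8 counts, Evi2b had 0 counts in every library, and the Evi2a-Evi2b row had 0 to 3. How reads were assigned among these overlapping genes was not stated in the sources used here. No exon base of Nf1 is shared with an exon of these genes in the annotation.

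The rest of the RAS switch was read from 4 lists of genes, beside the same share of all genes as above. Of 4 measured further brakes (Rasal3, Rasa4, Lztr1 and Pebp1; Rasal1 was under 1 CPM in each library), 0 were 2-fold apart in NF1 vs WT and 1 was lower in PKO-NF1 vs PKO. That was Rasa4, a calcium-regulated GTPase-activating protein (35.1 to 14.4 CPM; 2.44-fold, 2.09 to 2.84), which was at -0.87 on the log2 scale with the trends removed. The list's medians were -0.03 and -0.46. Of 5 RAS and RRAS proteins, Hras was higher in NF1 than in WT (60.3 to 140 CPM; 2.33-fold, 2.17 to 2.50), 0 were lower, and in PKO-NF1 vs PKO 0 were called in either direction. Hras was also at 119 CPM in PKO, 1.97-fold higher than in WT (1.83 to 2.13), and at 144 CPM in PKO-NF1. Nras was at 112 to 139 CPM over the 4 libraries.

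Of 11 measured exchange factors and adaptors, which load RAS with GTP or link it to receptors, 0 were called in NF1 vs WT. In PKO-NF1 vs PKO Ptpn11, the SHP2 phosphatase, was lower (211 to 97.7 CPM; 2.16-fold, 2.04 to 2.29; log2 ratio -0.57 with the trends removed), and 0 were higher. Of 9 measured kinases and scaffolds downstream of RAS, Ksr1, a scaffold for RAF, MEK and ERK, was called in both comparisons in opposite directions. Its levels were 31.9 CPM for WT, 85.8 CPM for NF1, 23.2 CPM for PKO and 8.72 CPM for PKO-NF1. The median log2 ratio of that list was 0.11 for NF1 vs WT, then 0.07 for PKO-NF1 vs PKO, and that of the RAS and RRAS proteins was -0.04 and 0.27. In PKO vs WT, the exchange factor gene Rasgrp2 was 2.08-fold higher, and the other measured genes of these lists were within 2-fold. In PKO-NF1 vs NF1, Rasal3, Rasa4, Braf and Ksr1 were at least 2-fold lower and Rras and Mapk3 higher. Of these Rasa4 and Ksr1 stayed past 2-fold with the trends removed. Rasgrp2 then also passed 2-fold there, at a log2 ratio of 1.17 against 0.49 as measured. In PKO vs WT it was at 1.39 with the trends removed.

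**Figure D5:**
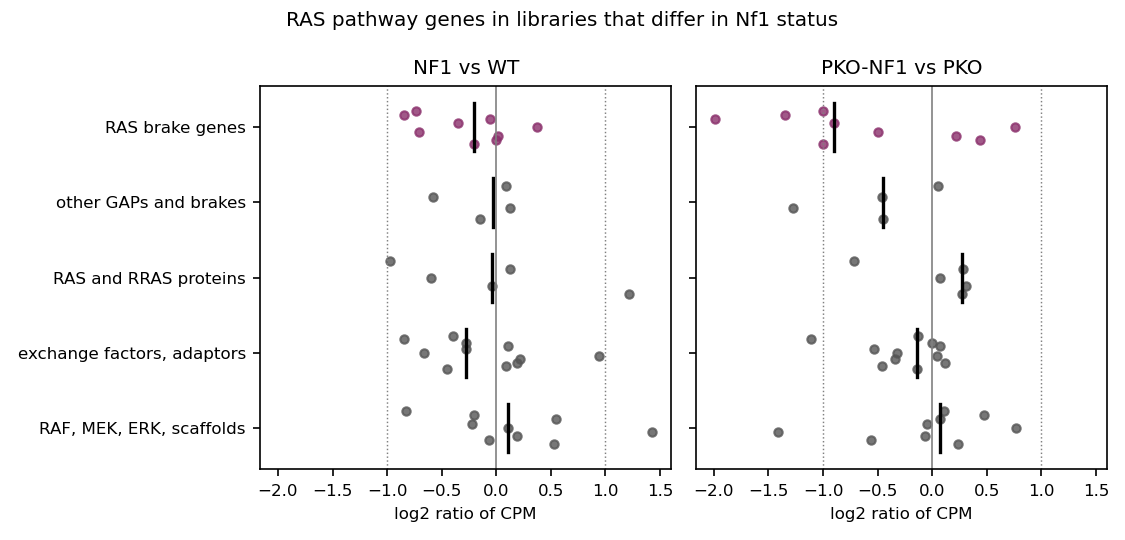
Log2 ratio of CPM (horizontal axis) in NF1 vs WT and PKO-NF1 vs PKO for the 9 RAS brake genes and for 4 lists of other RAS pathway genes; points are genes, black bars list medians, and dotted lines mark 2-fold. In PKO-NF1 vs PKO the median is -0.90 for the brakes and between -0.46 and 0.27 for the other lists.

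The genes whose pattern over the 4 libraries was most like that of Nf1 were sought among 10496 genes at 5 CPM or more in each library, by the root mean square difference of centred log2 CPM. The closest were the chromatin remodeller gene Chd6 (0.031), Sugp2 (0.032), the hedgehog-responsive transcription factor Gli1 (0.038), the nuclear envelope protein gene Syne1 (0.040) and the U1 snRNP gene Snrnp70 (0.040), while the median gene was at 0.77. Chd6 levels were 95.1 CPM for WT, 86.4 CPM for NF1, 53.0 CPM for PKO and 27.7 CPM for PKO-NF1. Syne1 was at 78.5, 70.4, 42.2 and 22.5 CPM in that order. The search used CPM with the length and GC trends left in. Chd6 (10515 bases), Sugp2 (7248) and Syne1 (27908) fall, like Nf1, in the longest decile of transcripts. Gli1 (4057) and Snrnp70 (4008) do not, and the part of length and GC content in the likeness was not tested. Among the brakes Spred2 was the closest to Nf1, at 0.14 with 63 genes closer, and then Spred3 at 0.28, although at 1.59 CPM in PKO-NF1 it is outside the filter of this search, and Dab2ip at 0.37. Rasa3 was the farthest at 0.74.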

How the data were processed

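Counts per gene symbol were used as deposited, in whole numbers and 1 table. Per the submitters' processing notes, tools included HISAT2 2.0.5 and featureCounts 1.5.2, with FastQC 0.11.7, on build mm10. For annotation, strand setting and multi-mapping reads, nothing is given in the sources used here. Per the labels' protocols, Trizol was used for extraction and a TruSeq RNA kit for the libraries.

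Counts were scaled with edgeR 4.0.16 TMM factors, which ran from 0.873 in PKO to 1.20 in WT. Ratios carry exact conditional (Clopper-Pearson) 95% intervals. The additive model used genes at 1 CPM in 2 or more libraries. Both scripts were tested on simulated data, which checks the code and says nothing of the power in these libraries. Transcript length and GC content came from GENCODE on GRCm38, matched for 98.5% of symbols, and trends were natural splines with 4 degrees of freedom. Alternatives were DESeq2 1.42.0 size factors and Wald test, total counts, other filters, a 1.5-fold threshold, scaling without muscle and adipocyte markers, models with 1 term, and leaving out each library in such a model. Length by the longest transcript was added after the data were seen.

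The members and lists were chosen with earlier results of these data known. Some genes of the pathway lists are not reported here, and the lists' counts and medians leave them out. Named genes were the members, nested genes, up to 3 called genes per pathway list and the 5 genes most like Nf1. Marker lists other than those of Schwann cells and skeletal muscle summed, over the 4 libraries, to 320 to 920 CPM (endothelial), 3906 to 18425 CPM (adipocyte), 9105 to 16129 CPM (fibroblast), 652 to 1017 CPM (perineurial), 638 to 1119 CPM (pericyte and smooth muscle), 748 to 1273 CPM (macrophage) and 410 to 1095 CPM (mast cell).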

Additional observations from a re-analysis of the deposited data

Results flagged for a closer look

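Ksr1, a scaffold for RAF, MEK and ERK, had log2 ratios of opposite sign where Nf1 status differed: 1.43 in NF1 vs WT (2.69-fold higher, interval 2.44 to 2.97) and -1.41 in PKO-NF1 vs PKO (2.66-fold lower, 2.20 to 3.24). The difference was not tested, since each group has 1 library. Removing the length and GC trends gave 2.09 and -0.61. The NF1 library, the highest for Ksr1 at 1691 counts, is also the one with 48566 CPM of skeletal muscle markers, whose part in the result was not tested.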

How the results depend on the processing

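With 1 library per genotype these values say nothing of animals, and depth limits Spred3 most, at 26 counts in PKO-NF1. No paired analysis was possible because each genotype has 1 library and the labels carry no replicate numbers. With muscle and adipocyte markers taken out of the scaling, 36 of 36 log2 ratios of the members kept the sign of their unrounded value. That setting changes the scaling factors alone. The sign was kept by 35 with DESeq2 size factors (Rasa1 in NF1 vs WT went from -0.00 to 0.01). It was kept by 34 with total counts only and by 30 with the length and GC trends removed. Total counts shifted the median of all genes by -0.22 in NF1 vs WT, -0.46 in PKO vs WT and -0.17 in PKO-NF1 vs NF1; the Nf1 log2 ratio was then -0.41 in NF1 vs WT and -1.29 in PKO vs WT, and that of Rasa3 in PKO vs WT was -0.38. With the trends removed Nf1 was at -0.65 in PKO-NF1 vs PKO, -0.37 in PKO vs WT and -0.76 in PKO-NF1 vs NF1. The cause was not tested.

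The number of members at least 2-fold apart was 0 in NF1 vs WT. It was 1 there with total counts only (beside 10.8% of all genes lower and 7.54% higher) and 3 at a 1.5-fold threshold (beside 16.7% and 19.2%). In PKO-NF1 vs PKO the number was 2. It was 4 there with DESeq2 size factors (beside 10.1% lower and 4.96% higher), 1 with the trends removed (beside 4.99% and 2.91%) and 6 at 1.5-fold (beside 20.2% and 15.7%). In PKO vs WT the number was 0, or 6 with total counts only (beside 18.6% and 5.12%) and 6 at 1.5-fold (beside 15.3% and 16.2%). In PKO-NF1 vs NF1 the number was 3. It was 4 there with total counts only (beside 17.9% and 5.2%), 2 with the trends removed (beside 10% and 5.85%) and 5 at 1.5-fold (beside 24.1% and 20%).

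In the additive model the Nf1 term called 0 genes, 284 by the DESeq2 Wald test, 46 with no filter, 21 with the trends removed and 0 to 83 with this term alone and 1 library left out, the 83 without PKO-NF1; no setting called a member at this term. The P2ry14 term called 7 genes, 720 by the DESeq2 Wald test, 108 with no filter, 77 with the trends removed, 0 with that term alone on all libraries and 0 to 349 with that term alone and 1 library left out (349 without WT, 39 without NF1). The members called there were 0, or 1 (Nf1) by the DESeq2 Wald test. With 1 library left out both terms leave no residual degree of freedom, so a term was dropped with the library: 2 choices change at once, and the term kept is mixed with the other genotype. A group is then left with a lone sample, which is assumed to vary like the others.

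Fitted values that changed sign at the Nf1 term, where a library left out again means this term alone, were those of Nf1 (-0.59; -0.44 with this term alone on all libraries, 0.05 without WT and 0.16 without PKO-NF1, while its pairwise log2 ratios were -0.20 in NF1 vs WT and negative in PKO-NF1 vs PKO), Spred3 (-0.94; 0.22 without PKO-NF1), Rasa1 (0.22; -0.12 without PKO and -0.05 with the trends removed) and Rasa2 (0.12; -0.26 without PKO, -0.25 without NF1 and -0.09 with the trends removed). At the P2ry14 term they were those of Rasa3 (0.19; -0.11 without PKO and -0.16 without NF1), Dab2ip (-0.71; 0.09 with the trends removed) and Rasal2 (-0.34; 0.10 without WT, 0.11 without PKO-NF1 and 0.33 with the trends removed).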
